A study of Mus musculus with 412 samples.

Results

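Tyrosine hydroxylase, encoded by Th, and 9 other genes of catecholamine synthesis, storage, uptake and breakdown were followed in single sensory neurons of the mouse colon. The 10 genes were chosen by name and role, and each was found by its Ensembl identifier among the 45513 genes of the table. C57BL/6J mice received the retrograde tracer Fast Blue in the wall of the colon, and traced neurons were picked by hand from primary cultures of dorsal root ganglia, of thoracolumbar (TL) or lumbosacral (LS) level, and sequenced in 6 library plates. The table holds 325 of the 399 neurons in the labels, 167 TL and 158 LS. Strain and tracing were shared by all neurons, and the segment is the contrast in the labels. Since the labels name neither the animal nor the culture behind a neuron, each segment counts as 1 sample, no test was run between groups, and the 95% intervals on shares cover counting error only. A level is a length-corrected value rescaled to a sum of 1000000 in each neuron, and a gene is called present at a level of 10 or more. For Th, that level stood for a median of 28.8 reads, between 3.90 and 107 reads according to the depth of the neuron.

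Catecholamine synthesis begins with tyrosine hydroxylase, which turns tyrosine into L-DOPA and needs the cofactor tetrahydrobiopterin. GTP cyclohydrolase, encoded by Gch1, starts the making of that cofactor, and DOPA decarboxylase (Ddc) turns L-DOPA into dopamine. Dopamine is packed into vesicles by the monoamine transporters Slc18a1 and Slc18a2, converted to noradrenaline by dopamine beta-hydroxylase (Dbh), taken back by Slc6a2 or Slc6a3, and degraded by the monoamine oxidases Maoa and Maob. In dorsal root ganglia, Th is best known as a marker of low-threshold C fibres (C-LTMRs) of the skin. Neurons were split by Gfra3, a receptor subunit for artemin common in peptidergic nociceptors, by Piezo2, a mechanically gated channel, and by Ntm, a cell adhesion protein.

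The split gave 100 TL neurons with Gfra3, none of which reached 10 for Ntm, 55 TL neurons with Piezo2 and no Gfra3, and 12 with neither. In LS ganglia there were 41 neurons with Gfra3 and Ntm, 42 with Gfra3 and no Ntm, 65 with Piezo2 and no Gfra3, and 10 with neither. All 8 sensory neuron markers examined were present in at least 50% of the neurons of each segment, among them the intermediate filament gene Prph and the transcription factor Isl1. Reads on genes ranged from 485751 to 10499482 per TL neuron and from 416007 to 12058968 per LS neuron, as recovered from the values. Where a gene's length was taken from its values, as for Gch1, Slc18a2 and Slc6a2, the fewest reads that fit were used, so the true reads may be higher. The summed level of 8 satellite glia and Schwann cell markers had a median of 2006 in TL neurons (range 5.61 to 99142) and 224 in LS neurons (range 6.67 to 59524).

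The stretches before the annotated starts of the first 3 enzymes of the route are shown because their transcripts stood far apart in these neurons, with Th abundant, Gch1 modest and Ddc rarely at a level of 10. Each is 250 bases of RefSeq sequence on GRCm38.p6, read 5′ to 3′ on the strand of the gene. They lie at chr7:142899996-142900245 on the minus strand for Th, at chr14:47189414-47189663 on the minus strand for Gch1 and at chr11:11890409-11890658 on the minus strand for the more downstream of the starts listed for Ddc. Capitals mark the 8 letters of a full cAMP response element, TGACGTCA, which reads the same on both strands.
Th: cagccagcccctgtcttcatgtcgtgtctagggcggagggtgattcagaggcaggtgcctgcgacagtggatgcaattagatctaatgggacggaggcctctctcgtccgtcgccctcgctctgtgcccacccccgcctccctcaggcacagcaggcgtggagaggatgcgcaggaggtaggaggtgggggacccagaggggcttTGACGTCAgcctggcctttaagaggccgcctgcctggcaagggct
Gch1: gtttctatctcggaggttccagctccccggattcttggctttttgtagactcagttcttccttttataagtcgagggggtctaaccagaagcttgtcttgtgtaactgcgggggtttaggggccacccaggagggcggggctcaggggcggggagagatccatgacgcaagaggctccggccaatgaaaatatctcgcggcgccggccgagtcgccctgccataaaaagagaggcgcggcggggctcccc
Ddc: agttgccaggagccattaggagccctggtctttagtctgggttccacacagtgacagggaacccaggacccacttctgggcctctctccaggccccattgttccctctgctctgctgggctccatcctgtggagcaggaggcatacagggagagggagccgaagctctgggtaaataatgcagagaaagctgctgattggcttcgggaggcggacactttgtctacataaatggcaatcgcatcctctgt
The Th stretch held the element from 45 to 38 bases before the start, and the Gch1 stretch and both Ddc stretches did not hold these letters. Among 32851 stretches of the same length before mouse gene starts, 508 (1.55%) held them. Of the 7 pathway genes with an entry, Slc18a2 also had the letters, but there they ran across the start itself. A match of letters is a description and not a measured site.

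Th had the highest mean level of the 10 transcripts and was higher in LS than in TL neurons. It was present in 102 of 167 TL neurons (61.1%, exact interval 53.2% to 68.5%) and in 136 of 158 LS neurons (86.1%, 79.7% to 91.1%). TL neurons ranged from 0 to a level of 2274 with a median of 33.3, and LS neurons from 0 to 3435 with a median of 308. The neurons of the 2 segments overlapped across nearly the whole scale, and the difference lay in how many were high. A level of 1000 or more was found in 4 TL neurons and 45 LS neurons, and a level of 0 in 45 TL neurons and 15 LS neurons. The mean level was 179 in TL and 660 in LS, a ratio of 3.69. Within plates 2 to 6, which held both segments, this ratio was above 1 each time and ran from 2.42 to 5.30. Plate 3 had the lowest LS share, with Th present in 15 of 25 neurons, against 86.8% to 95.2% in the other plates with LS neurons. With each segment as 1 sample, a difference between segments cannot be told apart from one between animals or cultures.

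**Figure D1:**
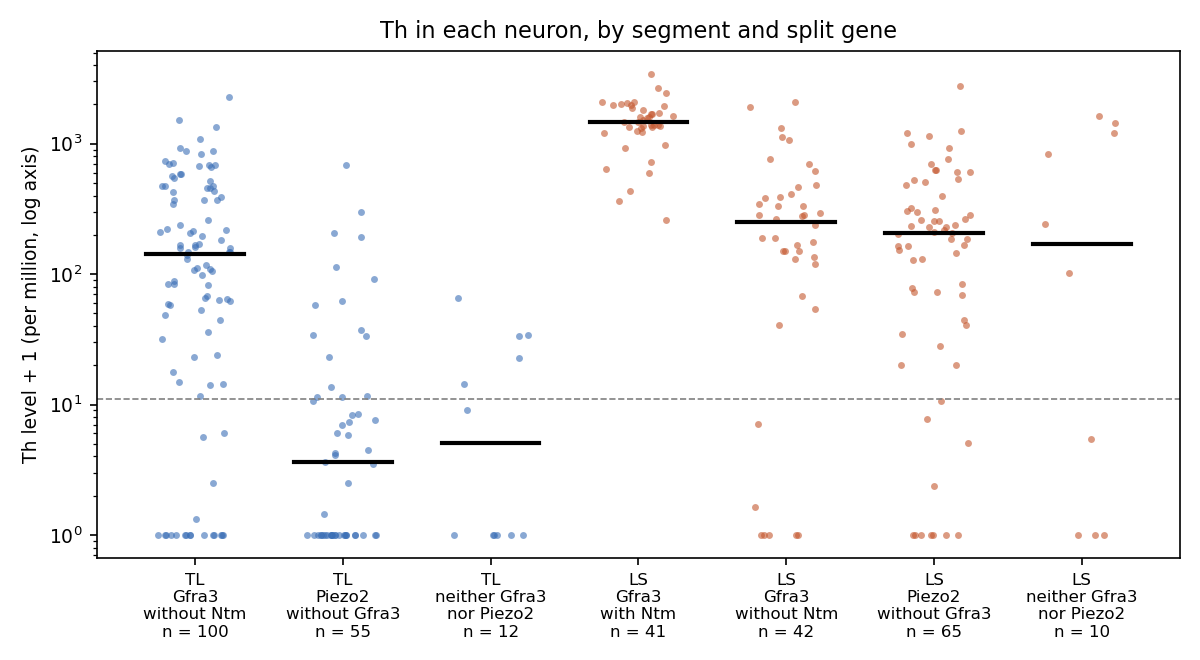
Level of Th plus 1 in every neuron, on a log axis, by segment and by presence of Gfra3, Ntm and Piezo2; black bars are medians and the dashed line marks a level of 10. All 41 LS neurons with Gfra3 and Ntm lie above the line, whereas most of the 55 TL neurons with Piezo2 and no Gfra3 lie below it.

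Of the classes, LS neurons with both Gfra3 and Ntm had the highest Th. All 41 of them held Th, from a level of 257 to 3435 with a median of 1472, and 33 reached 1000. LS neurons with Gfra3 and no Ntm had a median of 251 (range 0 to 2080) and LS neurons with Piezo2 and no Gfra3 a median of 206 (range 0 to 2771). These 2 classes overlapped, and Th was present in 83.3% of the first and 83.1% of the second. In TL neurons Th was higher where Gfra3 was present. TL neurons with Gfra3 had a median of 142 (range 0 to 2274), and 81 of 100 held Th. TL neurons with Piezo2 and no Gfra3 had a median of 2.61 (range 0 to 690), and 16 of 55 held it. The LS neurons with Piezo2 and no Gfra3 had 9.13 times the mean Th level of the TL neurons of the same class, 323 against 35.4. The small classes with neither gene had Th in 5 of 12 TL and 6 of 10 LS neurons. Ntm divided only the neurons with Gfra3, and it was also present in LS neurons without Gfra3. These were 5 of the 65 with Piezo2 and 2 of the 10 with neither gene. All of them held Th, up to 2771 in the first class and 1620 in the second, so high Th was not confined to Ntm neurons with Gfra3.

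The mean of Th differed at least 2-fold in each of 4 comparisons of classes. It was 3.95 times higher in LS neurons with Gfra3 and Ntm than in those with Gfra3 and no Ntm, where 14.8% of all genes that passed the filter differed 2-fold in either direction. LS neurons with Piezo2 and no Gfra3 had 0.344 times the mean of LS neurons with Gfra3 (15.1% of genes). TL neurons with Gfra3 had 7.85 times the mean of TL neurons with Piezo2 and no Gfra3 (18.2%), and in the comparison of the latter class between segments 16.7% of genes differed 2-fold.

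Gch1 was the other synthesis gene found widely, at a much lower level than Th. It was present in 74 TL neurons (44.3%, 36.6% to 52.2%) and 126 LS neurons (79.7%, 72.6% to 85.7%). Its median was 7.77 in TL (range 0 to 73.3) and 19.2 in LS (range 0 to 106), and the segments overlapped. The mean was 2.03 times higher in LS, and within plates 2 to 6 the ratio ran from 1.33 to 2.56. Th, Gch1 and Maob were the 3 members, of 6 that passed a mean level of 1, with a mean at least 2-fold higher in LS, against 5.04% of all 15249 genes that passed; 10.8% of those genes differed 2-fold in either direction. Gch1 did not follow the Ntm split that separated Th. In LS neurons with Gfra3 its median was 17.4 with Ntm and 16.9 without, and in LS neurons with Piezo2 and no Gfra3 it was 29.2.

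Ddc, which follows tyrosine hydroxylase in the route, rarely reached the threshold. No LS neuron reached a level of 10, which allows a share of up to 1.90%, and 3 of 167 TL neurons did. All reads on Ddc came to 616 in TL and 78 in LS neurons, whereas Th collected 105785 and 372754. The Ddc reads were not spread evenly over TL neurons. At least 1 read was found in 17 of 55 TL neurons with Piezo2 and no Gfra3 and in 4 of 100 TL neurons with Gfra3, so most lay in the TL class with the lowest median Th. The 4 neurons with Gfra3 also held Piezo2, at levels of 49.8, 67.3, 55.3 and 70.4, whereas Piezo2 was present in 18 of those 100 neurons. At least 10 reads were found in 14 neurons of the first class, with a highest count of 100, and in 4 of the second. A level of 10 stood for a median of 54.3 Ddc reads, and for 7.35 reads in the shallowest neuron.

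The 3 neurons with Ddc are named here by numbers given in order of accession, which carry no other meaning. TL neuron 100, from plate 4, had Gfra3 at 93.9 and Piezo2 at 70.4. Its Ddc was at a level of 10.2 from 62 reads, with Th at 13.3 and Gch1 at 30.7. TL neuron 119, from plate 5, had Piezo2 and no Gfra3, Ddc at 11.7 from 36 reads, Th at 22.1 and Gch1 at 7.32. TL neuron 176, from plate 6, had the highest Ddc, 24.6 from 76 reads, with no Th, no Gch1 and Slc18a2 at 53.5. In the first and second of these neurons Th was little above the threshold. The third had reads on only 7743 genes, against a median of 13497 in TL neurons.

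Dbh, Slc6a2 and Slc6a3, the genes of noradrenaline synthesis and of uptake from outside the cell, did not reach a level of 10 in any neuron. That allows a share of up to 0.923% of the 325 neurons for each. The highest Dbh level was 6.65, in an LS neuron, and reads on Dbh came to 76 in TL and 120 in LS neurons. The noradrenaline transporter Slc6a2 had 5 reads in TL and 1 in LS, and the dopamine transporter Slc6a3 had 10 and 1. The gene of the last enzyme of the route, Pnmt, which makes adrenaline, was also below 10 in every neuron. Slc29a4, a low-affinity monoamine transporter of the plasma membrane, was present in 88.0% of TL and 95.6% of LS neurons. The organic cation transporters Slc22a2 and Slc22a3 were each present in under 2% of either segment.

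The vesicular transporters were low. Slc18a1 was present in 1 TL and 3 LS neurons, with medians of 0.261 and 0.787. Slc18a2, the transporter of most monoamine neurons, was present in 13 TL (7.78%, 4.21% to 12.9%) and 21 LS neurons (13.3%, 8.42% to 19.6%). Its highest levels were 53.5 and 39.8, and its medians of 4.18 and 3.72 lay under the threshold. The mean of Slc18a2 was 4.79 in TL and 5.16 in LS, and in plates 2 to 6 the ratio fell on both sides of 1, from 0.822 to 1.61. An exon of the antisense gene Gm29261 overlaps Slc18a2, and since these libraries do not keep strand its reads cannot be told apart from those of Slc18a2. In LS neurons with Th, Slc18a2 was less often present than in LS neurons without Th, 14 of 136 (10.3%) against 7 of 22 (31.8%), a difference of -21.5 points with a Newcombe interval of -42.8 to -4.85. At a threshold of 1 the difference was 10.2 points, so its direction depends on the threshold.

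**Figure D2:**
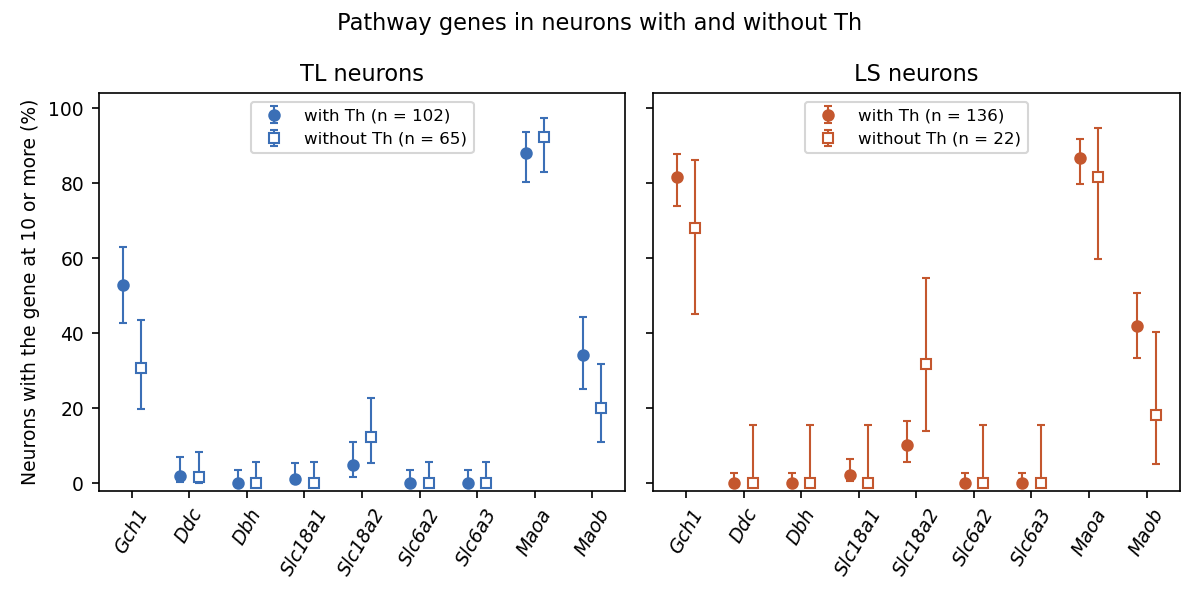
Share of neurons with each gene at 10 or more among neurons with Th (filled circles) and without Th (open squares), in TL and LS; bars are exact 95% intervals. Gch1 and Maob are the genes whose share was higher with Th by 10 points or more in both segments (Maob in TL by 14.3 points, or 9.80 with CPM), and Dbh, Slc6a2 and Slc6a3 sit at 0 throughout.

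Whether neurons with Th carried the rest of the pathway was asked within each segment. Gch1 was present in 54 of 102 TL neurons with Th (52.9%) and in 20 of 65 without (30.8%), a difference of 22.2 points (6.77 to 35.8). In LS it was present in 111 of 136 neurons with Th (81.6%) and 15 of 22 without (68.2%), a difference of 13.4 points whose interval of -3.68 to 35.0 includes 0. The LS neurons without Th were deeper, with a median of 4972217 reads against 3127333. After thinning all neurons to 500000 reads, where a gene was called present at 5 reads or more, the difference was 23.2 points. Within plates the difference was positive in 4 of 6 for TL and in 4 of 5 for LS. Some plates held few neurons without Th, 1 in TL plate 1 and 1, 3 and 3 in LS plates 2, 4 and 5. Of the 4 members present in at least 5% of TL neurons besides Th, Gch1 and Maob differed by 10 points or more, against 25.2% of all 11851 genes that passed the same filter in TL. With CPM of recovered reads, which are not corrected for length, the difference of Maob in TL was 9.80 points and so under this limit. In LS, Gch1, Slc18a2 and Maob did so among 4 members, against 32% of 12013 genes. A difference of 10 points was thus common among all genes. Within TL neurons with Gfra3, Gch1 and Maob were the members that differed by 10 points or more, and 40.3% of all genes did. Gch1 was present there in 43 of 81 neurons with Th and 8 of 19 without. The interval of this difference, -13.2 to 32.6 points, includes 0. In LS neurons with Gfra3 and no Ntm the direction was opposite, with Gch1 in 29 of 35 neurons with Th and 7 of 7 without. That difference was -17.1 points (-32.7 to 19.4). In neurons with Piezo2 and no Gfra3, 3 of 4 members differed in TL (33.4% of all genes) and 4 of 4 in LS (38.8%).

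No neuron held the whole set. Th and Ddc were both present in 2 TL neurons (1.96% of those with Th) and in no LS neuron, which allows up to 2.21%. Th, Gch1 and Ddc were together in 1 TL neuron, TL neuron 100. A vesicular transporter was found beside Th in 6 of 102 TL neurons (5.88%, 2.19% to 12.4%) and 16 of 136 LS neurons (11.8%, 6.88% to 18.4%), and none of these neurons also held Ddc. Th and Gch1 with a vesicular transporter were found in 2 TL and 11 LS neurons. Th with a monoamine oxidase was the common combination, in 94 of 102 TL neurons (92.2%) and 119 of 136 LS neurons (87.5%). An oxidase was about as common without Th, in 60 of 65 TL neurons (92.3%) and 18 of 22 LS neurons (81.8%).

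**Figure D3:**
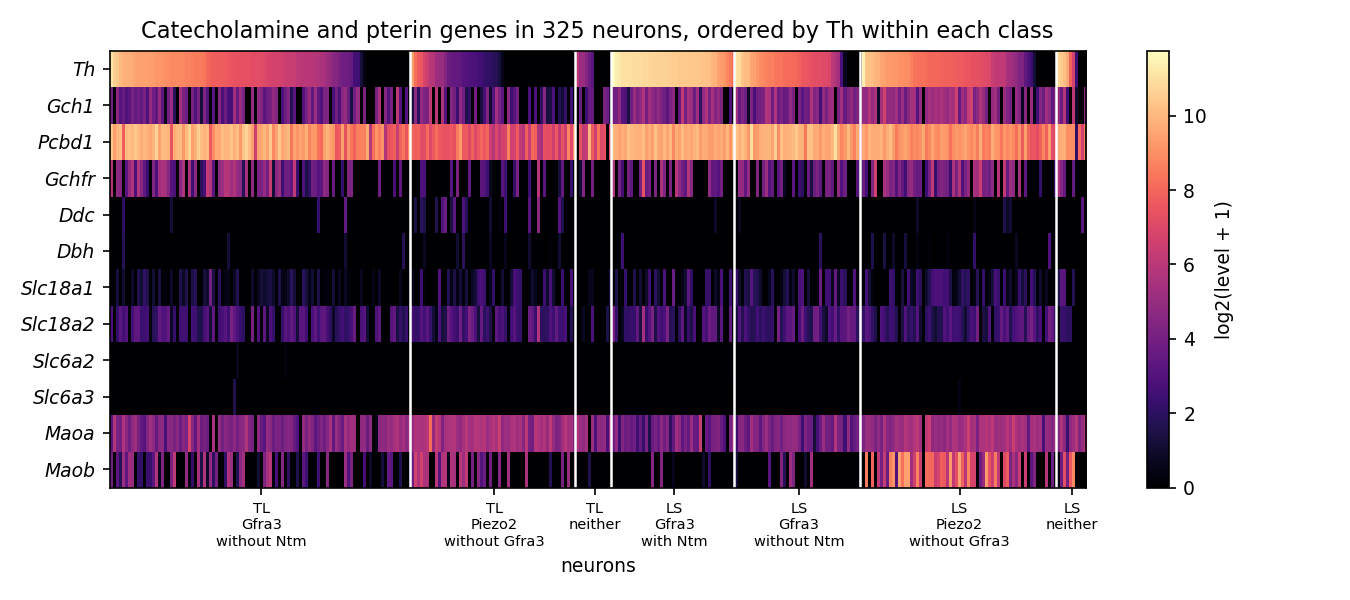
Levels as log2(level + 1) of 10 pathway genes and the pterin genes Pcbd1 and Gchfr in 325 neurons, grouped by segment and class and ordered from high to low Th within each class. Th, Gch1, Pcbd1 and Maoa fill most columns, Maob is bright in LS neurons with Piezo2 and no Gfra3, and Ddc, Dbh, Slc6a2 and Slc6a3 are almost empty.

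The oxidases divided by class. Maoa was present in 150 TL (89.8%) and 136 LS neurons (86.1%), with medians of 26.4 (range 0 to 285) and 23.9 (range 0 to 90.8). It was higher in neurons with Piezo2 and no Gfra3 in both segments, with a median of 44.7 against 21.1 in TL neurons with Gfra3 and 37.2 against 15.1 in LS neurons with Gfra3. All 55 TL neurons with Piezo2 and no Gfra3 held it, the lowest at 13.7. The Spearman correlation of Maoa with Th was -0.31 over 167 TL neurons and -0.36 over 158 LS neurons. Within the 5 larger classes it lay between -0.17 and 0.25, so the negative correlation was not found in each class. In TL neurons with Piezo2 and no Gfra3, where it was 0.25, median Maoa was 49.1 with Th and 42.3 without. The means were 61.8 and 42.3, and the first of these included TL neuron 43, with the highest Maoa level, 285. The share of Maoa differed by -4.07 points between TL neurons with and without Th and by 4.95 points in LS.

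Maob varied more between classes. It was present in 48 TL (28.7%) and 61 LS neurons (38.6%), with a mean of 11.8 in TL and 75.5 in LS, a ratio of 6.39 that ran from 3.47 to 8.77 within plates 2 to 6. In LS, 50 of 65 neurons with Piezo2 and no Gfra3 held Maob (76.9%, 64.8% to 86.5%), with a median of 82.8 and a highest level of 751. By contrast, 2 of 41 LS neurons with Gfra3 and Ntm and 4 of 42 with Gfra3 and no Ntm held it, the highest at 40.4. Among the 10 LS neurons with neither gene 5 held it, with a mean of 84.6 and a highest level of 466. The mean in LS neurons with Piezo2 and no Gfra3 was 79.7 times that in LS neurons with Gfra3, 168 against 2.11, and 7.76% of 15318 genes were at least 2-fold higher in the same comparison. In that LS class Maob exceeded Maoa in 41 of 65 neurons, whereas in TL neurons of the same class it did so in 10 of 55. The TL class held Maob in 23 of 55 neurons, with a highest level of 102, and 25 of 100 TL neurons with Gfra3 held it.

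Among neurons with Piezo2 and no Gfra3, Maob was found more often together with Th. In LS, 46 of 54 such neurons with Th held Maob (85.2%) and 4 of 11 without Th (36.4%), a difference of 48.8 points (18.2 to 71.2). Plate 3 gave 6 of the 11 neurons without Th, and there Maob was present in 3 of 5 with Th and 2 of 6 without. Without plate 3, chosen after seeing the data, the counts were 43 of 49 and 2 of 5, a difference of 47.8 points. In plate 4 they were 13 of 15 and 1 of 3, and plates 2, 5 and 6 held at most 1 neuron of this class without Th. In TL, 11 of 16 with Th held it (68.8%) and 12 of 39 without (30.8%), a difference of 38.0 points (9.04 to 59.0). Gch1 differed in the same direction in this class, by 23.4 points in LS (-0.695 to 52.4) and 33.2 points in TL (5.51 to 56.3). In the same comparisons 21.7% of 11403 genes in LS and 16.6% of 11721 genes in TL were more frequent with Th by 10 points or more. Over all LS neurons the Spearman correlation of Maob with Th was -0.18, and within the LS class it was 0.36. Th was highest in the LS neurons with Gfra3 and Ntm, where Maob was rare. The LS neurons of this class without Th had more reads than those with Th, a median of 5536263 against 3079127, and fewer genes detected, 13638 against 14475. Their summed glial level was also higher, with a median of 1102 against 364. After thinning to 500000 reads the difference within the class was 49.0 points, and the part of glial RNA was not tested. Over all LS neurons the difference of Maob with Th was 23.7 points, and 18.7 points after thinning.

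**Figure D4:**
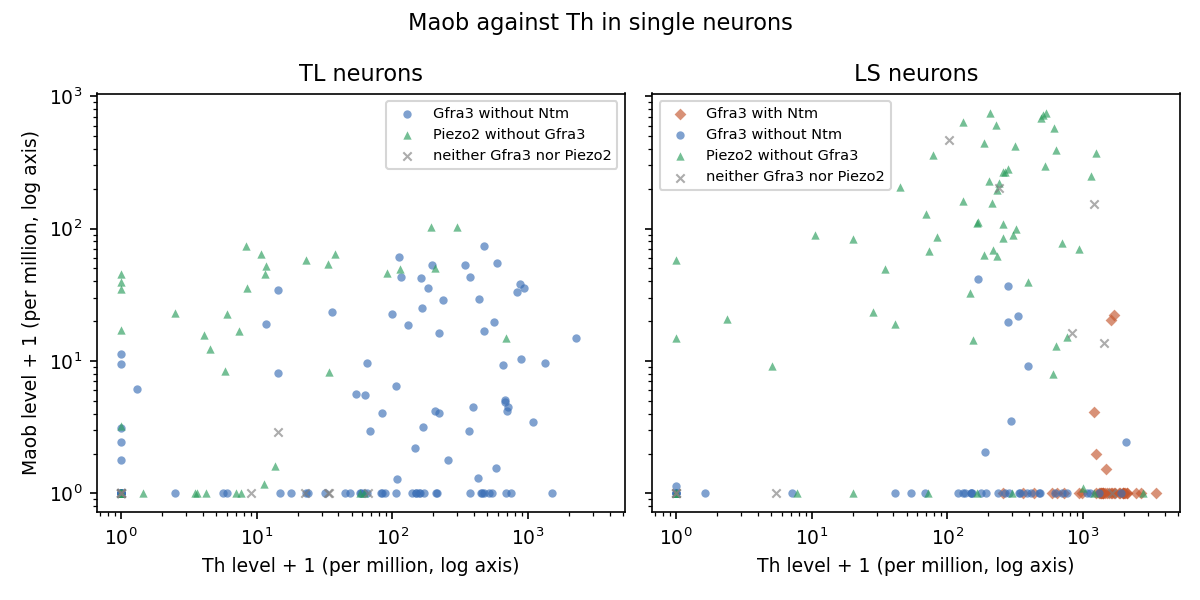
Level of Maob plus 1 against level of Th plus 1 in every neuron, both on log axes, for TL and LS, with a symbol for each class. In LS the triangles, neurons with Piezo2 and no Gfra3, reach a Maob level of 751, whereas the diamonds, neurons with Gfra3 and Ntm, have the highest Th, and only 2 of these 41 reach a Maob level of 10.

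The genes that make, recycle and regulate the pterin cofactor were broadly expressed. Of 7 such genes, 5 were present in at least 50% of the neurons of each segment. The 4 with the highest mean were Pcbd1, which recycles the oxidised cofactor, Qdpr, its reductase, and the synthesis enzymes Pts and Spr, each present in 98.2% of neurons or more in both segments. Presence therefore could not separate neurons with and without Th for these genes, but Pcbd1 had a higher mean level with Th. Single neurons overlapped. LS neuron 52, with no Th, had Pcbd1 at 829, and TL neuron 4, with Th at 690, had it at 238. LS neurons with Gfra3 and Ntm had 0.943 times the mean Pcbd1 of those with Gfra3 and no Ntm. The mean of Pcbd1 was 714 in TL neurons with Th and 216 in those without, and 771 and 365 in LS. Its Spearman correlation with Th was 0.70 in TL, where it ranked 3 of 10223 genes, and 0.54 in LS, where it ranked 76 of 10308. Within plates it ran from 0.56 to 0.81 in TL and from 0.37 to 0.71 in LS. In TL neurons with Piezo2 and no Gfra3 the correlation was 0.34. In LS neurons with Gfra3 it was 0.27 with Ntm and 0.32 without. By contrast, it was 0.64 in TL neurons with Gfra3 and 0.60 in LS neurons with Piezo2 and no Gfra3. All such correlations are across neurons that share libraries and scaling, and neurons are not independent replicates.

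**Figure D5:**
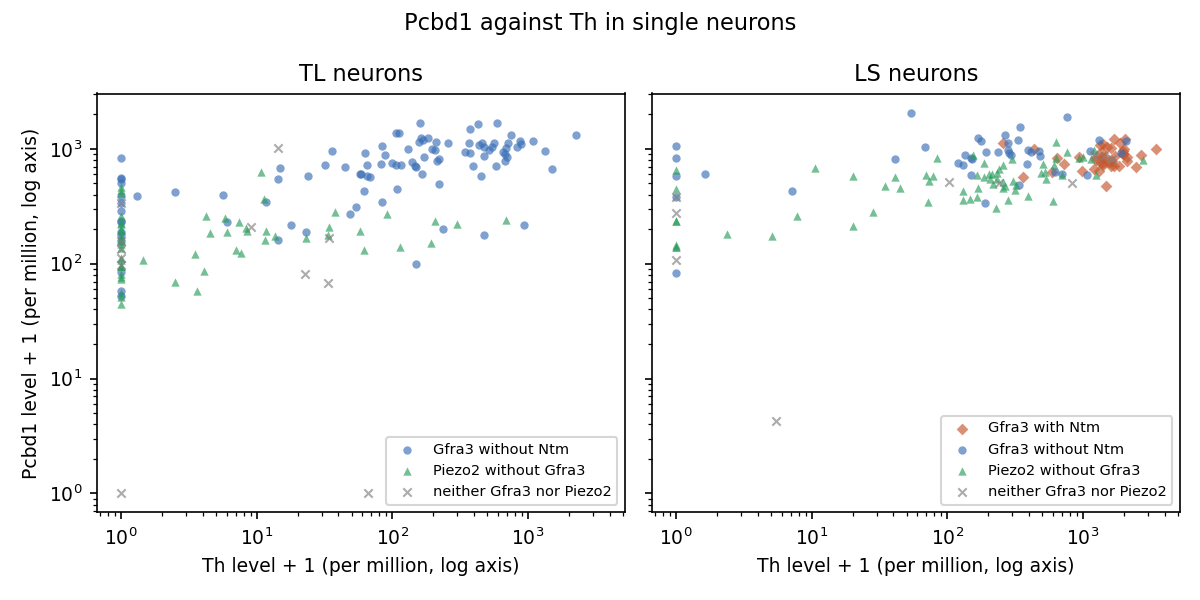
Level of Pcbd1 plus 1 against level of Th plus 1 in every neuron, both on log axes, for TL and LS, with a symbol for each class. Pcbd1 and Th rise together over TL neurons (Spearman correlation 0.70), where neurons with Piezo2 and no Gfra3 sit low on both axes, and less closely over LS neurons (0.54).

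Gchfr, which encodes the regulator that mediates feedback of the cofactor on GTP cyclohydrolase, was the 1 pterin gene whose presence differed with Th by 10 points or more. Differences of that size were found in 25.2% of all genes that passed the filter in TL and 32% in LS. It was present in 47 of 102 TL neurons with Th (46.1%) and 5 of 65 without (7.69%), a difference of 38.4 points (25.3 to 49.0). In LS the counts were 74 of 136 (54.4%) and 1 of 22 (4.55%), a difference of 49.9 points (30.7 to 58.8). It was higher with Th in each of 6 plates in TL and in 4 of 5 plates in LS. TL plate 1 and LS plate 2 each held 1 neuron without Th. The LS neuron without Th that held Gchfr was that of plate 2, so no other LS plate could show the opposite. The difference was found in TL neurons with Gfra3 (45 of 81 against 1 of 19) and in LS neurons with Piezo2 and no Gfra3 (38 of 54 against 0 of 11), but in TL neurons with Piezo2 and no Gfra3 it was -1.44 points (-15.1 to 21.2). The 19 TL neurons with Gfra3 and no Th had fewer genes detected than the 81 with Th, a median of 10668 against 13791, and a higher summed glial level, 5888 against 2142. Without neurons with few genes, an alternative chosen after seeing the data, Gchfr was present in 41 of 72 TL neurons with Gfra3 and Th and in 1 of 12 without Th. After thinning to 500000 reads, with presence at 5 reads or more, the counts were 15 of 76 and 0 of 21. The threshold changed there together with the depth. The part of glial RNA was not tested.

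Other genes that handle catecholamines did not differ in 1 direction. Of 11, none was more frequent by 10 points with Th in TL and 3 were in LS: Aldh2, an aldehyde dehydrogenase, Cyb561, a cytochrome of secretory vesicles, and Slc29a4. For Slc29a4 the LS share was higher with Th in 2 of 5 plates and lower in 1. The difference was 63.7 points in plate 5, which held 3 LS neurons without Th. By level, its Spearman correlation with Th was -0.05 in LS and 0.54 in TL, so its levels did not follow Th in LS. Over all genes that passed the filter, 25.2% in TL and 32% in LS differed by 10 points in either direction. Aldh1a1, another aldehyde dehydrogenase, and Moxd1, a relative of Dbh, were less frequent with Th in both segments. Moxd1 was present in 5 of 102 TL neurons with Th (4.90%) and 22 of 65 without (33.8%), and Rnls in 16.9% of LS neurons with Th and 27.3% without, a difference whose interval includes 0.

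The transcription factors that specify noradrenergic neurons were absent or nearly so. Each of 9, among them Phox2a and Hand2, was present in under 5% of the neurons of either segment, the most frequent being Gata2 in 2 TL neurons. Of 8 factors of midbrain dopamine neurons, 7 were also under 5%. The exception was Nr4a2, present in 43 TL and 33 LS neurons, with a share of 20.6% with Th against 33.8% without in TL and of 19.1% against 31.8% in LS. The intervals of both differences include 0. Of the serotonin genes, Tph2, the neuronal tryptophan hydroxylase, was present in 9 TL and 7 LS neurons, and none of the 3 differed by 10 points with Th.

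Of 5 dopamine receptors, Drd2 alone was present in over 5% of either segment. It was also the 1 of 5 that differed with Th by 10 points or more, a difference found in 25.2% of all genes in TL and 32% in LS. It was found in 14 of 102 TL neurons with Th (13.7%) and 1 of 65 without (1.54%), a difference of 12.2 points (3.62 to 20.3). In LS it was found in 22 of 136 (16.2%) and 0 of 22, a difference of 16.2 points (0.413 to 23.3). No plate in either segment had it less often with Th. Since Drd2 was in 0 LS neurons and 1 TL neuron without Th, hardly any plate could have, so the plates add no support.

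The 10 genes whose levels followed Th most closely were ranked in each segment by Spearman correlation over all genes present in at least 10% of its neurons. In TL they were Ngb (0.74), Chrna3 (0.70), Pcbd1, Minar2, Qpct, Npffr2, Chrnb4, Adra2a, Fxyd6 and Bik (0.66). In LS they were Nrsn1 (0.77), Crhr2 (0.72), Rcn1, Qpct, Npy1r, Igfbp7, Ntm, Asl, Fxyd6 and Tmem158 (0.67). Qpct, a glutaminyl cyclase, and Fxyd6, a regulator of the sodium pump, were in both. The nicotinic receptor subunit Chrna3 correlated with Th in TL but had a correlation of -0.15 in LS. Ntm is itself a split gene, and its correlation with Th in LS was 0.69. Over all ranked genes the median correlation was 0.056 in TL and 0.017 in LS, and the 95th percentile was 0.39 and 0.32. No other of the 10 pathway genes was near the top. Maob had 0.34 and Gch1 0.26 in TL, and Gch1 had 0.08 in LS.

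Markers of other cells were examined beside these results. Among all genes that passed the filter, 25.2% in TL and 32% in LS differed by 10 points with Th in either direction. Among 6 macrophage markers C1qb moved with Th, being present in 68 of 102 TL neurons with Th (66.7%) and 7 of 65 without (10.8%), and in 80.1% against 54.5% in LS. Its partner C1qa was not present in any neuron, and Csf1r was present in 0 TL and 3 LS neurons. The summed level of 5 mast cell markers had a median of 0 in both segments. The summed glial level had a median of 2204 in TL neurons with Th and 1207 without, and of 230 and 180 in LS. Of 8 glial markers, 2 had a share higher with Th by 10 points or more in TL, among them Apoe (88.2% against 76.9%), and the median difference over the list was 6.63 points in TL and -1.97 in LS. Mbp had lower shares in both segments, and Sox10 had a lower share in LS (5.15% against 18.2%). Of 6 endothelial and pericyte markers, 5 were each present in under 5% of either segment, and Rgs5 had a lower share with Th in LS (7.35% against 27.3%). The part of these cells in the differences with Th was not tested.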

How the data were processed

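Single mouse neurons had been sequenced by the Smart-seq2 protocol with paired-end reads. The authors used bcl2fastq 2.15.0.4, STAR 2.4.1, featureCounts 1.4.4 and GRCm38.p3, per the labels and the submitters' processing notes. They deposited 1 table of normalised log2 values with an added 1, for 325 neurons left after their filter. The other 74 neurons and 13 bath controls in the labels were not analysed here.

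Each log2 value deposited by the authors was taken off the log scale as 2 to the power of the value, minus 1, and rescaled to 1000000 per neuron, which keeps the correction for gene length. Reads behind the values were recovered as whole numbers. With exonic lengths of GENCODE M21, 65.0% of values above 0 were whole within a relative tolerance of 1e-06, against 0.303% with lengths changed at random, and the other lengths were taken as the shortest that made a gene's values whole. The reads served for depth and for alternatives only. Symbols came from GENCODE M21. The pathway genes and gene lists were chosen with earlier results of these data known. Named genes are all 10 members, the 3 split genes, at most 4 genes of the highest mean in each list, any list gene whose share differed by 10 points with Th, and the 10 genes most correlated with Th in each segment. Gene names beyond these were given after their values were seen. Some genes of the lists are counted but not reported here by name.

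Shares carry exact Clopper-Pearson 95% intervals and differences of shares Newcombe intervals. A count of 0 allows 3 divided by n. These cover counting error only, since neurons of 1 segment are not replicates, and no p-value was computed. Background shares cover genes with a mean level of 1 or more (2-fold differences) or present in at least 5% of the neurons compared (10 points). No doublet caller was run, since neurons were picked by hand. Thresholds, scaling, depth, plates and filters on neurons were varied. After thinning to 500000 reads a gene was called present at 5 reads or more, in place of a level of 10. Recovery of reads and folds was tested on simulated data for genes with an annotated length only. Lengths taken from a gene's values were not tested in this way. Python 3.11.15, NumPy 2.4.6, SciPy 1.17.1 and statsmodels 0.14.6 were used.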

Additional observations from a re-analysis of the deposited data

Results flagged for a closer look

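Maoa was the 1 member whose share moved in opposite directions with Th in the 2 segments, by -4.07 points in TL and 4.95 points in LS. Each segment is 1 sample, so the difference between segments was not tested. The Newcombe intervals, -12.9 to 6.25 in TL and -7.84 to 25.8 in LS, both include 0.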

How the results depend on the processing

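The threshold mattered most for rare combinations. At a threshold of 1, Th was present in 71.9% of TL neurons, Th with Ddc was found in 15 TL and 2 LS neurons, the trio with Gch1 in 14 and 2, Th and Ddc with a vesicular transporter in 13 and 2, Th with Dbh in 5 and 6, and Th with Slc6a2 or Slc6a3 in 1 TL neuron. With any value above 0, Th was present in 73.1% of TL neurons, each of the 3 combinations with Ddc was found in 16 TL and 9 LS neurons, Th with Dbh in 9 and 11, and Th with an uptake gene in 3 and 2, and 4 members differed by 10 points in TL. At a threshold of 5, the counts with Ddc were 5, 5 and 1 TL neurons, and at 20 both Th with Ddc and the trio fell to 0. The difference of Slc18a2 with Th in LS reversed to 10.2 points at 1, 14.8 points above 0 and 0.746 points at 20. The 2 TL neurons with Th and Ddc became 1 without rescaling, after thinning to 500000 reads, without plate 4 and without plate 5, and the trio became 0 after thinning or without plate 4. With CPM of recovered reads, the trio was found in 2 neurons and 1 member, Gch1, differed by 10 points in TL. The share of all genes differing 2-fold between segments was 17.7% without rescaling and 38.9% with no filter, and the shares differing with Th fell to 14.4% in TL and 19.0% in LS with no filter. The cause of these changes was not tested. Leaving out 47 neurons with few genes, or plates 1, 2, 3 or 6, moved none of the leading counts beyond 1.5 times or the leading shares beyond their intervals, and the glial filter left out 0 neurons. Of the leading results, 252 values under the alternatives stayed within those limits and 39 did not. Depth limits the shallowest neurons, where a level of 10 of Th stood for 3.90 reads. No paired analysis was possible between single neurons because a number names 1 neuron and pairs none across segments, and no result comes from a test. Plates 2 to 6 hold both segments, and ratios within them are given with the results.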

Other observations

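Dense-core vesicle genes were expressed in nearly all neurons. All 9 examined were present in at least 50% of the neurons of each segment, with the granins Scg2 and Scg3 and the carboxypeptidase Cpe among the highest. In each segment 2 of the 9 were more frequent with Th by 10 points or more, where 25.2% of all genes in TL and 32% in LS differed that much in either direction. Pam, which amidates peptides, was present in 89.2% of TL neurons with Th and 69.2% without, and in 98.5% and 86.4% in LS. Pcsk1, a prohormone convertase, was present in 81.4% against 63.1% in TL and in 95.6% against 72.7% in LS.

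Markers of C-LTMRs did not move with Th as a group. Of 7, 1 was more frequent with Th by 10 points and 2 less frequent in TL, and 2 more and 1 less in LS. Differences of this size held for 25.2% of all genes in TL and 32% in LS. Slc17a8, the vesicular glutamate transporter that marks these cells, was present in 1 TL neuron and no LS neuron. In TL, Fam19a4 (6.86% with Th against 35.4% without) and Gfra2 (10.8% against 30.8%) were less frequent with Th. The calcium channel gene Cacna1h was more frequent with Th, at 26.5% against 12.3% in TL and 64.0% against 22.7% in LS, and Zfp521 was more frequent in LS, at 32.4% against 4.55%. P2ry1 was present in 2.21% of LS neurons with Th and 13.6% of those without.

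Of 8 sensory neuron markers, 1 in TL and 2 in LS were less frequent with Th by 10 points or more, and 0 were more frequent. Among all genes, 25.2% in TL and 32% in LS differed that much in either direction, so such differences were common. The markers were Rbfox3, which encodes the nuclear protein NeuN, at 66.7% against 98.5% in TL and 64.7% against 90.9% in LS, and Avil at 72.1% against 100% in LS. Among glial genes, Mbp was less frequent with Th in both segments (58.8% against 73.8% in TL and 36.0% against 68.2% in LS).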
